A study of Mus musculus with 9 samples.

Results

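The cytosolic ribosomal protein genes encode the proteins of the 40S and 60S ribosomal subunits. They were taken by symbol from the gene table of sorted mouse long-term hematopoietic stem cells (LT-HSCs): symbols that begin with Rpl or Rps and a number, together with Rpsa, Rplp0, Rplp1 and Rplp2, without the kinases that share the prefix and without the 274 symbols marked -ps as pseudogenes. The rule gave 92 genes of the 47643 in the table. Of these, 77 are the core genes for one protein each of the small subunit (31 genes) or the large subunit (46 genes), and the other 15 are paralogs, retrogene copies, pseudogenes and Rps19bp1, which encodes a protein that binds Rps19 and is not itself part of the ribosome. The rule uses symbols only.

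The study sequenced RNA from LT-HSCs of mice that lack class IA phosphoinositide 3-kinase (PI3K) isoforms, to find which genes depend on this kinase in the stem cell. TKO cells carried Pik3ca lox/lox, Pik3cb lox/lox, Pik3cd-/- and Mx1-Cre, littermate δKO cells carried the same Pik3 alleles without Cre, so that both floxed genes stayed intact and P110δ was missing from the germline, and WT cells carried Mx1-Cre with normal Pik3 genes. Whole bone marrow of each genotype (C57BL/6) was transplanted into lethally irradiated recipients, all of which received 2 injections of 250 μg pIpC 48 hours apart, an inducer of the interferon response that drives the Mx1 promoter, and LT-HSCs of donor origin were sorted 4 weeks later as lineage-negative cells with cKit, Sca1 and CD150 and without Flk2 and CD48. Cells of the 7 recipients of a group were pooled before staining, and each genotype has 3 libraries, so the p-values below measure the spread between libraries, which may be technical in part. WT shares Mx1-Cre with TKO, and δKO shares the Pik3 alleles, so that Cre itself and the deletion of Pik3ca and Pik3cb cannot be told apart between TKO and δKO.

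Ribosomal protein mRNAs belong to the 5′ terminal oligopyrimidine (TOP) family. They begin with a cytosine followed by a run of pyrimidines, and this tract lets mTORC1, a kinase complex that acts downstream of PI3K and AKT, control how much of the mRNA is translated. Rps6 protein is phosphorylated by S6 kinase in the same pathway, and blood-forming cells are known to be sensitive to the dose of ribosomal proteins: single-copy loss of RPS19 and several other members causes Diamond-Blackfan anemia, and loss of RPS14 contributes to the 5q- form of myelodysplastic syndrome. What was measured here is the amount of mRNA, not its translation.

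The first bases of some of these mRNAs show the tract on which that control rests. The lines give 10 bases before and 20 bases from the annotated start in RefSeq (build GRCm38.p6), on the strand of the gene, with the tract in capitals. The tract was searched on the gene's own strand only, as a C followed by at least 4 bases that are C or T, beginning within 5 bases of the start. Rps6 and Rps27 (minus strand) and Rpl38 (plus strand) are shown as core genes with a tract, Rpl4, the core gene with the highest level, as one without a tract at the annotated start, and Rpl22l1 and Rps27l as paralogs whose values are described further on.
Rps6, chr4:86857348-86857377, minus strand: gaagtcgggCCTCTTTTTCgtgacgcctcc
Rps27, chr3:90213629-90213658, minus strand: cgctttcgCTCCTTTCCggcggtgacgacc
Rpl38, chr11:114668570-114668599, plus strand: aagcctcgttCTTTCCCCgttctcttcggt
Rpl4, chr9:64173377-64173406, plus strand: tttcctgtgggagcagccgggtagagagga
Rpl22l1, chr3:28805498-28805527, plus strand: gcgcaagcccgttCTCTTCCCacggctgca
Rps27l, chr9:66946076-66946105, plus strand: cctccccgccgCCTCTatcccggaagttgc

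RefSeq promoters were at hand for 57 of the core genes, with 67 annotated starts. A tract began within 5 bases of the annotated position at 29 of these starts (43.3%), compared with 6027 of 32851 starts over all genes (18.3%). With the tract required to begin exactly at the annotated start, the shares were 19.4% and 2.51%. A tract was also found at 3 of 12 starts of the other members and at 7 of 18 starts of a list of translation factors of the TOP family. A start without capitals, as at Rpl4, says only that no tract begins within 5 bases of the annotated position.

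The core genes lay on 19 chromosomes, with at most 14 on one (chromosome 7), and every one of them was measured well enough to be tested. Between 612775 and 1588742 counts per library fell on them, out of 31300343 to 60386097 counts on all genes, and the fewest counts on any core gene ranged from 23 to 231 over the libraries. Of the other 15 members, 11 passed edgeR's filter on low counts. Rpl10l and Rps12l1 had no count in any library, which allows up to 3 counts in a library, Rpl39l had 1 count in WT replicate 2, and Rpl3l, a paralog known from muscle, had 133 counts in WT replicate 1, 14 in WT replicate 3, 4 in TKO replicate 2 and none elsewhere. One δKO library has a number in the count table that no label carries and is called the unnumbered δKO library here.

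Libraries differed in ways other than genotype. The number of genes with a count was lowest in δKO replicate 1 (18180) and the unnumbered δKO library (18500) and reached 22703 in TKO replicate 3. All 7 HSC markers examined (Kit, Ly6a, Slamf1, Procr, Fgd5, Hlf and Mecom) had counts in every library, a low bar at this depth that does not test the sort. Levels are given as CPM (counts relative to the library total, scaled with edgeR's TMM factors). Ly6a ran from 2.15 CPM in δKO replicate 1 to 37.3 CPM in TKO replicate 2. Slamf1 ran from 16.4 CPM in the unnumbered δKO library to 159 CPM in TKO replicate 1. The 7 markers summed to 1060 to 1183 CPM in WT, 995 to 2039 CPM in δKO and 1315 to 1712 CPM in TKO. Cd48 and Flt3, whose proteins (CD48 and Flk2) the sort selected against, also had counts in every library, with a sum of 12.9 to 133 CPM. Summed neutrophil markers ranged from 170 to 12868 CPM. Of the targeted genes, Pik3cb stood at 25.5 to 33.9 CPM in TKO, below WT (44.6 to 63.6) and overlapping only the lowest library of δKO (33.2 to 101). Pik3cd, at 71.2 to 73.5 CPM in TKO and 38.5 to 91.2 in δKO, was below WT (98.2 to 139) but not absent, and Pik3ca overlapped between all genotypes, so mRNA counted over the whole gene does not show the deletion for each isoform.

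Ribosomal protein mRNA took between 1.96% and 3.55% of all counts. The share on the 77 core genes was 2.32%, 2.76% and 2.96% in the WT libraries, with a mean of 2.68% ± 0.328 (SD, n = 3). In δKO it was 2.25% in replicate 1, 2.93% in replicate 2 and 1.96% in the unnumbered library (2.38% ± 0.498, SD, n = 3), and in TKO it was 2.38%, 3.55% and 2.54% (2.82% ± 0.637, SD, n = 3). The genotypes overlapped, and the single highest library, TKO replicate 2, lay next to 2 TKO libraries within the range of the controls. Both subunits took part: the 40S genes had 1.63% of counts in TKO replicate 2 against 1.04% and 1.11% in the other TKO libraries, and the 60S genes 1.93% against 1.34% and 1.43%. In bulk RNA, a different mix of cells and a different amount of this RNA per cell cannot be told apart.

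**Figure D1:**
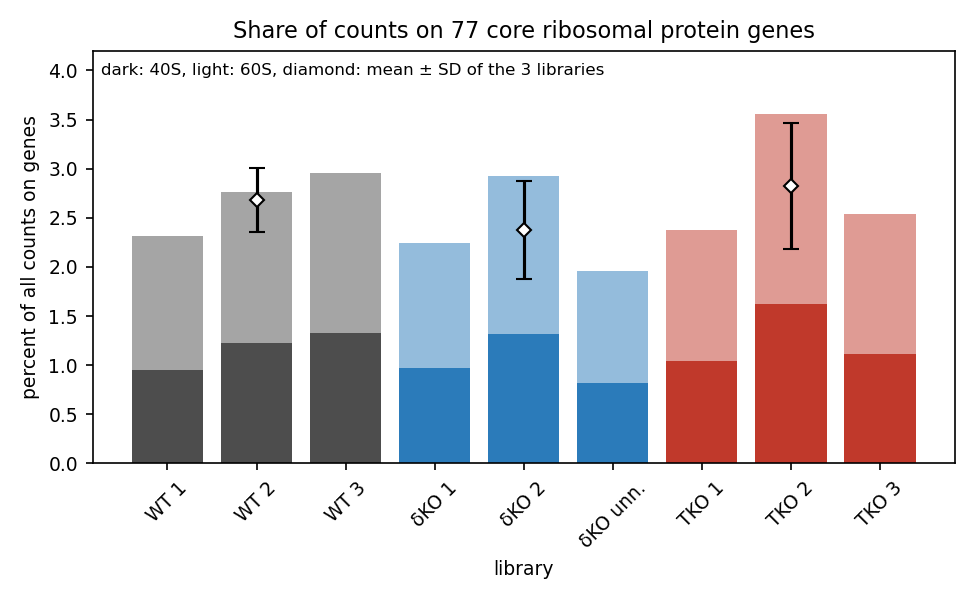
Percent of all counts on genes (y axis) that fell on the 77 core ribosomal protein genes in each library (x axis; "unn." is the unnumbered δKO library), with the 40S genes in the dark and the 60S genes in the light part of a bar, and a diamond for the mean ± SD of the 3 libraries of a genotype. TKO replicate 2 has the highest share (3.55%) and the unnumbered δKO library the lowest (1.96%), and the 3 genotypes overlap.

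Gene by gene, the levels of the core genes moved together, most clearly between the TKO libraries. Each gene's log2 CPM was set against its own mean over the 9 libraries. The median of these differences over the core genes was -0.13, -0.06 and 0.17 in WT replicates 1 to 3. It was 0.17 in δKO replicate 1, 0.15 in δKO replicate 2 and -0.19 in the unnumbered δKO library. In TKO it was -0.32, 0.60 and -0.35, so that the highest and the lowest median both belong to TKO libraries. This order depends on the TMM scaling, with factors of 1.13, 0.917 and 1.22 in TKO replicates 1 to 3 and 0.781 in δKO replicate 1. By share of all counts, TKO replicates 1 and 3 (2.38% and 2.54%) were above WT replicate 1 (2.32%), and the unnumbered δKO library was lowest (1.96%). Around its median, a library's core genes had an SD of 0.139 to 0.384, compared with 0.936 to 1.79 over all tested genes. The median core gene had 5941 to 17609 counts in a library, while the filter let in genes with about 10. Genes of like level were not compared. The largest SDs were those of δKO replicate 1 (0.384) and the unnumbered δKO library (0.320), which also had the fewest genes detected.

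**Figure D2:**
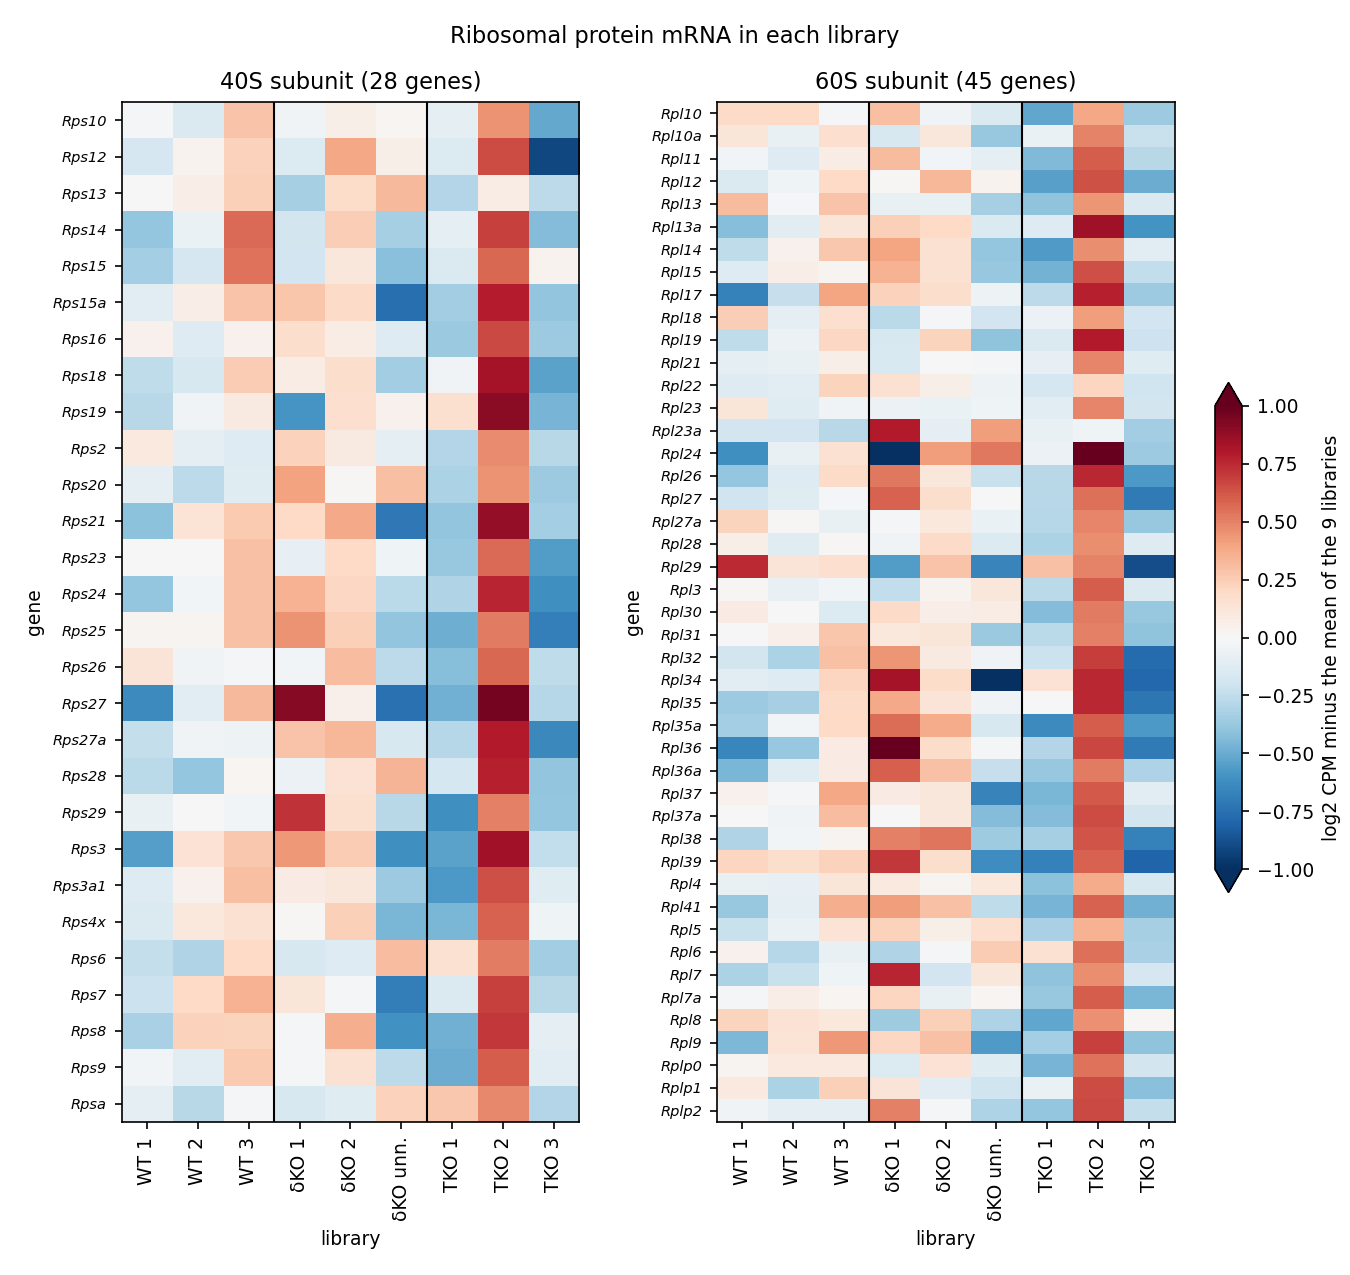
Log2 CPM of each core gene minus its mean over the 9 libraries (color, cut at -1 and 1), with libraries on the x axis and 73 of the 77 genes on the y axis, 40S on the left and 60S on the right. The column of TKO replicate 2 is red in nearly every row (median 0.60), those of TKO replicates 1 and 3 are mostly blue (medians -0.32 and -0.35), and δKO replicate 1 and the unnumbered δKO library are the most mixed.

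TKO replicate 2 was above both other TKO libraries for 77 of 77 core genes, whereas 36.7% of all tested genes were. The difference between TKO replicate 2 and the mean of TKO replicates 1 and 3 had a median of 0.96 on the log2 scale (1.95-fold) and ranged from 0.17 for Rpl23a to 1.62 for Rpl24. These values are after TMM scaling, which widens the difference. The shares of counts before it were 3.55% in TKO replicate 2 and 2.38% and 2.54% in TKO replicates 1 and 3. After scaling, TKO replicate 2 was the highest of all 9 libraries for 65 of the core genes (84.4%), compared with 13.4% of all genes. The lowest library was TKO replicate 3 for 32 core genes and TKO replicate 1 for 22. Of the 12 core genes that peaked elsewhere, 9 did so in δKO replicate 1, among them Rpl23a, Rpl34, Rpl7, Rpl39, Rpl36a, Rpl27, Rps29 and Rpl36, and the others were Rps13 in the unnumbered δKO library, Rpl22 in WT replicate 3 and Rpl29 in WT replicate 1.

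Other measures moved with the ribosomal protein genes among the TKO libraries, and their part in the difference was not tested. Mitochondrial ribosomal RNA took 8.64%, 15.7% and 6.88% of the counts of TKO replicates 1 to 3, against 14.4% to 16.8% in WT and 9.63% to 17.1% in δKO. Markers of other blood cell types were also highest in TKO replicate 2 among the TKO libraries. The 10 neutrophil markers summed to 170, 3413 and 961 CPM in TKO, compared with 5555 to 12868 CPM in WT and 277 to 12803 CPM in δKO, and each had a count in every library. The 8 erythroid markers summed to 22.2, 70.7 and 17.0 CPM in TKO, with 7.56 to 110 CPM in WT and 10.4 to 37.4 CPM in δKO. The 5 megakaryocyte markers gave 112, 237 and 99.8 CPM in TKO, and the 5 monocyte and macrophage markers 160, 538 and 141 CPM. The 6 lymphoid markers, 2 of which were at 0 in every library, gave 9.56, 11.9 and 5.04 CPM, and the 4 markers of stroma and endothelium were lowest in TKO replicate 2 (0.861, 0.291 and 1.78 CPM). In the other genotypes the orders differed from list to list. The core medians were -0.13, -0.06 and 0.17 in WT, where the neutrophil sums were 12868, 5555 and 11224 CPM, highest in the library with the lowest core median, and the monocyte and macrophage sums 153, 290 and 1031 CPM. In δKO, with core medians of 0.17, 0.15 and -0.19 (the last unnumbered), the neutrophil sums were 277, 5030 and 12803 CPM and mitochondrial ribosomal RNA took 9.63%, 16.9% and 17.1%, both highest in the library with the lowest core median. The HSC markers summed to 1614, 1315 and 1712 CPM in TKO.

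Over the 77 core genes, whose levels differ widely in every library, the log2 CPM of a pair of libraries correlated at 0.910 to 0.993 (Pearson's r, 36 pairs), against 0.802 to 0.915 over all tested genes. Pairs from different genotypes (0.928 to 0.993) had a range much like pairs of the same genotype (0.910 to 0.989). These correlations are across genes, which are not independent replicates, and the tested genes were not matched to the core genes by level. The proportions among the genes did differ between libraries. Once the median of its library was taken away, 9 of the 77 ranged over more than 2-fold across the libraries, with a median range of 0.61 on the log2 scale, and the genes of δKO replicate 1 deviated most (SD 0.384 over genes, against 0.139 in WT replicate 2). The genes that varied most included Rpl24, with a range of 2.38 on the log2 scale, Rpl29 (1.61), Rpl34 (1.58), Rpl36 (1.46) and Rps27 (1.29).

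Levels between genes were compared as CPM per kb of annotated exon. The median core gene had 147 CPM per kb, and 69 of 77 lay within 4-fold of it. Among the highest were Rpl4 of the large subunit, with a mean over the 9 libraries of 835, and Rpl38, a large-subunit protein known for its part in translating Hox mRNAs, with 630. For Rpl4, WT libraries averaged 823 ± 68.2 CPM per kb, δKO libraries 873 ± 24.3 and TKO libraries 811 ± 232 (SD, n = 3). The lowest were Rpl24 with 2.77, Rpl23a with 22.7 and Rpl27a with 28.4 CPM per kb, so that the highest and the lowest core gene differed by 302-fold. Rpl24 rested on 23 to 231 counts per library, although most ribosomal proteins are built into a subunit as 1 copy each. Many core genes have processed copies in the genome that can share their reads, and 57 of the 77 have at least 1 symbol marked -ps named after them, with up to 23 for Rps12. The median level was 152 CPM per kb for these and 139 for the 20 without, and Rpl24 is one of the latter. The split counts only symbols marked -ps, and some copies, such as Rps3a2 and Rpl6l, carry other names. A gene without such a symbol may therefore have copies as well, and the 2 medians do not show how far shared reads change a level. The -ps symbols themselves took 0.0433% to 0.0779% of counts. Reads were counted on genes with STAR, whose own gene counting takes only reads that map to 1 place, but whether that setting was used is not given in the sources used here, so the level of a single gene is uncertain where it has near-identical copies.

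**Figure D3:**
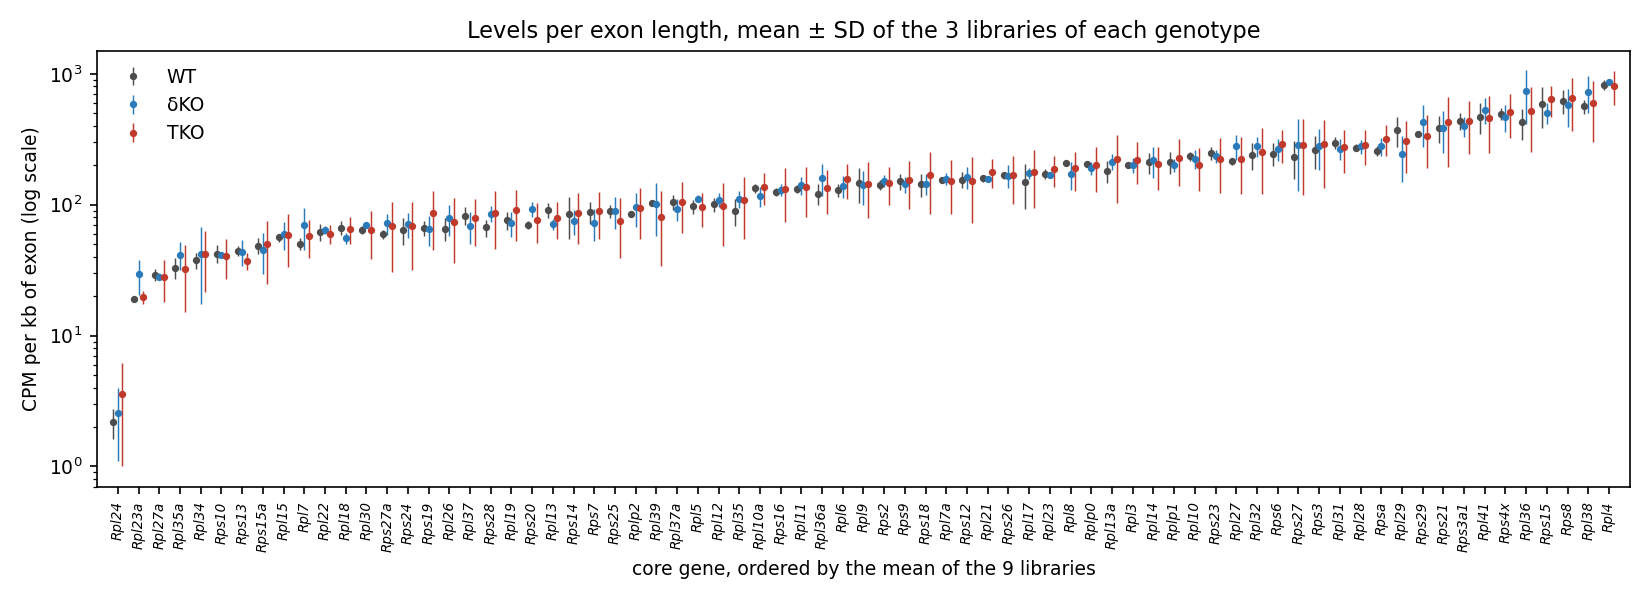
CPM per kb of annotated exon (y axis, log scale) for 73 of the 77 core genes, ordered by their mean over the 9 libraries (x axis), as mean ± SD of the 3 libraries of each genotype. The order runs from Rpl24 (2.77) to Rpl4 (835), and the TKO bars (red) are the widest for most genes.

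The main question is whether loss of the PI3K isoforms changed these mRNAs. No ribosomal protein gene passed the test in TKO compared with WT, the comparison of the full deletion with normal cells. With edgeR's quasi-likelihood test on all 9 libraries, 0 of 88 tested members reached both a 2-fold change and an adjusted p under 0.05 (Benjamini-Hochberg), where 0.00549% of all 18205 tested genes were called (1 gene). At an unadjusted p under 0.05, 0 members were found, where 4.19% of all genes were (1.68% higher and 2.5% lower in TKO). DESeq2, which gave a fold change for 27947 genes, called 0 members as well, where 0.447% of those genes were called. Some of the 27947 get no adjusted p in DESeq2, so this share is lower than among the genes it could call. All DESeq2 shares given here and below have the same base. DESeq2 had 0 members at an unadjusted p under 0.05, beside 2.54% of all genes higher and 2.86% lower. The median log2 fold change of the core genes was 0.06, and 47 of 77 were above 0, beside a median of 0.02 over all genes with 51.2% above 0. The 40S genes had a median of 0.05 and the 60S genes of 0.06. The count above 0 depended on the setting. It was 38 of 77 with the authors' normalized values in limma (core median -0.002, all genes -0.03). With the replicate number as a block it was 39 (0.002, all genes -0.03), and the lowest core median over the alternatives was -0.05. The libraries of the 2 genotypes overlapped for all 88 members, whereas 6.88% of all genes were higher and 7.47% lower in TKO with no overlap.

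In TKO compared with δKO, which differ in the deletion of Pik3ca and Pik3cb and in Mx1-Cre, edgeR again called 0 of 88 members, and 0% of all genes were called. At an unadjusted p under 0.05, 1 member was lower, the paralog Rpl22l1, where 5.56% of all genes were lower and 4.6% higher. DESeq2 called 0 members, where 1.98% of all genes were called, and had 1 lower at an unadjusted p under 0.05, beside 5.21% of all genes lower and 5.87% higher. The core median was 0.00, with 39 of 77 genes above 0, beside a median of -0.06 over all genes. With upper-quartile scaling 57 were above 0 (core median 0.13, all genes 0.08). With a minimum of 10 counts in every library 51 were (0.08, all genes -0.06). With the replicate number as a block 25 were (-0.10, all genes 0.03). Rpl22l1 was also the 1 member whose groups did not overlap, where 4.74% of all genes were lower and 6.98% higher without overlap.

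In δKO compared with WT, edgeR called 0 of 88 members, where 0.00549% of all genes were called (1 gene), and 0 members had an unadjusted p under 0.05, where 7.01% of all genes did (3.65% higher and 3.36% lower in δKO). DESeq2 called 0 members, where 0.683% of all genes were called, and had 2 higher and 1 lower at an unadjusted p under 0.05 when fitted to all 9 libraries, beside 3.81% of all genes higher and 4.49% lower. The core median was 0.05, with 46 of 77 genes above 0, the same median as over all genes (0.05). With the number of genes detected in the model, 10 of 77 were above 0 (core median -0.14, all genes -0.02), and with upper-quartile scaling 21 were (-0.11, all genes -0.10). Rpl22l1, Rpl23a, Rpl27 and Rps20 were higher in δKO without overlap and Rpl13 was lower, shares of the 88 members (4.55% and 1.14%) near or under those of all genes (4.13% and 7.39%). The 3 comparisons share libraries, so they are not independent of each other.

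The standard errors behind these results were mostly smaller than over all genes. The standard error of a core log2 fold change had a median of 0.30 in each comparison, compared with 0.78 over all genes, which were not matched by level. The 95% interval of the fold change lay inside a 2-fold change in either direction for 66 of 77 core genes in TKO compared with WT, for 63 in TKO compared with δKO and for 60 in δKO compared with WT. A change of 1.5-fold lay outside the interval for 6, 2 and 7 of them, and for the other core genes the interval reached a change of that size. The fit gives each gene 1 spread for all 3 genotypes, and the median half-width was 0.67 in each comparison. The core medians varied more among TKO libraries (SD 0.539, n = 3) than among those of WT (0.157) or δKO (0.205). The intervals may thus be too narrow for TKO. The core genes also shift together by library, so these counts are not independent pieces of evidence.

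The TKO medians depended on replicate 2. Without that library, which leaves 2 TKO libraries, the core median was -0.34 in TKO compared with WT and -0.40 in TKO compared with δKO, and 4 of 77 core genes were above 0 in each, while the medians over all genes were -0.02 and -0.08. Again 0 members passed the adjusted threshold. TKO replicate 2 was above both other TKO libraries for all 77 core genes, so leaving it out was bound to lower their fold changes in TKO. The shares over all genes carry no such choice and are not a like background for the counts that follow. At an unadjusted p under 0.05, 6 core genes, among them Rpl39, Rpl10, Rps23, Rps25 and Rpl12, were lower in TKO than in WT, where 2.89% of all genes were lower and 1.68% higher. In TKO compared with δKO, 14 core genes, Rpl36al and Rpl22l1 were lower, where 4.68% of all genes were lower and 4.48% higher. One of these was Rpl35a, a 60S protein and Diamond-Blackfan anemia gene, with a log2 fold change of -0.90 (SE 0.303, adjusted p = 0.530, edgeR). Without TKO replicate 1 or 3, 70 and 71 of 77 core genes were above 0 in TKO compared with WT (medians 0.20 and 0.20) and 59 and 58 in TKO compared with δKO (0.15 and 0.19). Without any library other than TKO replicate 2 the core median stayed between 0.20 and -0.10 in these 2 comparisons.

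**Figure D4:**
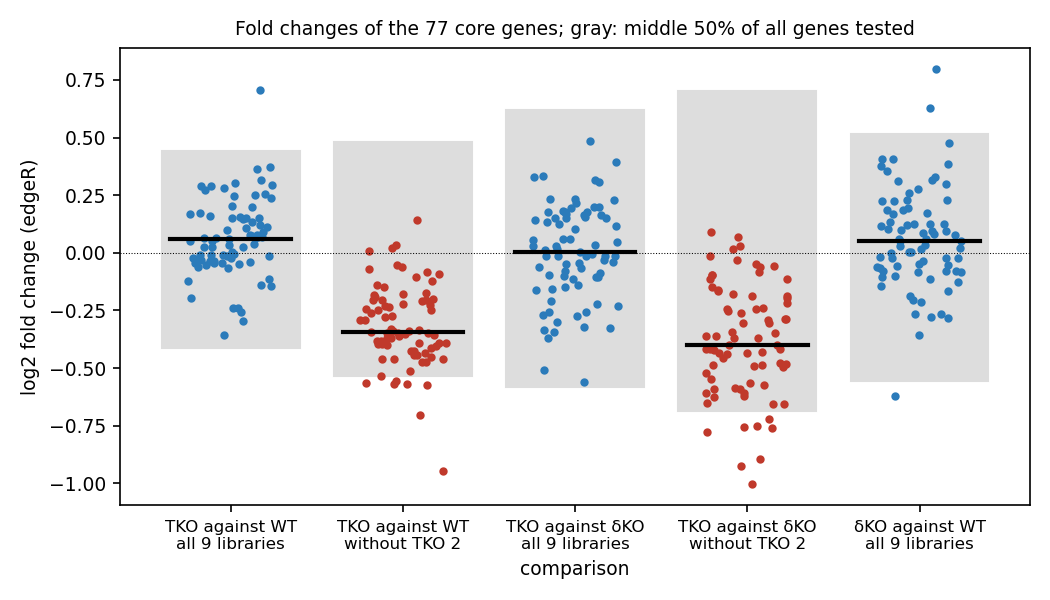
Log2 fold changes from edgeR (y axis) of the 77 core genes (points, spread sideways for visibility) in each comparison (x axis), with all 9 libraries in blue and without TKO replicate 2 in red. A black line is the core median and the gray box spans the middle 50% of all tested genes. The core medians are near 0 with all libraries (0.06, 0.00 and 0.05) and -0.34 and -0.40 without TKO replicate 2.

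Single members with known roles in blood were described next. Rps6 (ENSMUSG00000028495.14, chr4:86854660-86857412 in mm10), the 40S protein phosphorylated by S6 kinase, had 352, 338 and 478 CPM in WT, 373, 380 and 515 CPM in δKO (the last unnumbered) and 464, 594 and 328 CPM in TKO. Its groups overlapped, with log2 fold changes of 0.24 (95% interval -0.34 to 0.82) in TKO compared with WT and 0.13 (-0.45 to 0.71) in TKO compared with δKO. Without TKO replicate 2 these were 0.020 and -0.098. Rps14, the 5q- gene, had 145, 181 and 280 CPM in WT, 166, 225 and 150 CPM in δKO and 177, 303 and 140 CPM in TKO. The 3 genotypes overlapped, and the log2 fold change of TKO compared with WT was 0.03 (95% interval -0.71 to 0.77), with -0.35 when TKO replicate 2 was left out. Compared with δKO it was 0.20 with that library and -0.19 without it.

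Rps19, the gene most often mutated in Diamond-Blackfan anemia, had 268, 317 and 347 CPM in WT, 216, 365 and 336 CPM in δKO and 363, 608 and 235 CPM in TKO. TKO held both the highest and nearly the lowest library, and the log2 fold change of TKO compared with WT was 0.37 (95% interval -0.35 to 1.10) with all libraries and -0.05 without TKO replicate 2. Over the 20 listed Diamond-Blackfan anemia genes, the median log2 fold changes were 0.05 in TKO compared with WT, -0.02 in TKO compared with δKO and 0.16 in δKO compared with WT, and 0 had an unadjusted p under 0.05 in any comparison by edgeR, where 4.19%, 10.2% and 7.01% of all genes did. Rpl5 and Rpl11, 60S proteins that bind MDM2 and so stabilize p53 when ribosome assembly fails, are among them. Rpl5 had 336, 374 and 431 CPM in WT, 459, 407 and 439 CPM in δKO and 312, 498 and 310 CPM in TKO. Rpl11 had 355, 329 and 380 CPM in WT, 450, 355 and 338 CPM in δKO and 266, 548 and 297 CPM in TKO. For both, the δKO libraries lay inside the range of the TKO libraries, and the 95% interval of TKO compared with WT ran from -0.54 to 0.49 for Rpl5 and from -0.55 to 0.67 for Rpl11. Without TKO replicate 2 their log2 fold changes in that comparison were -0.29 and -0.34, against -0.03 and 0.06 with it.

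Rplp0, the scaffold of the ribosomal stalk and a common reference gene for PCR, had 331, 347 and 348 CPM in WT, 296, 360 and 298 CPM in δKO and 235, 473 and 286 CPM in TKO. The WT libraries were close together (342 ± 9.91 CPM, SD, n = 3) and the TKO libraries were not (332 ± 125 CPM). Rpsa, a 40S protein also known as a laminin receptor, had the smallest p in TKO compared with WT among the members, with 833, 733 and 877 CPM in WT and 1074, 1243 and 726 CPM in TKO. Even here TKO replicate 3 lay below every WT library, and the log2 fold change was 0.32 (SE 0.237, adjusted p = 1.00, edgeR), from 0.14 without TKO replicate 2 to 0.51 without TKO replicate 3. Rps28, Rps19, Rpl6 and Rps13 were also among the 6 smallest p, with log2 fold changes from -0.25 for Rps13 to 0.37 for Rps19. Without TKO replicate 2, Rpl6 stood at 0.034 in place of 0.27 and Rps13 at -0.38.

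Rpl36, a 60S protein, had the smallest p in δKO compared with WT. It had 126, 152 and 210 CPM in WT, 428, 225 and 197 CPM in δKO and 162, 315 and 121 CPM in TKO. The value of δKO replicate 1 was the highest of all libraries and the unnumbered δKO library lay within the WT range, with a log2 fold change of 0.80 (SE 0.396, adjusted p = 0.699, edgeR). Rpl23a, Rpl29, Rpl7 and Rps20 followed with Rpl22l1 among the 6 smallest p. Rpl23a, a 60S protein at the exit of the peptide tunnel, had 16.4, 16.3 and 15.4 CPM in WT, 32.3, 17.3 and 24.8 CPM in δKO and 17.7, 18.1 and 14.6 CPM in TKO. All δKO values were above WT, though δKO replicate 2 only narrowly. Its log2 fold change was 0.63 (SE 0.405, adjusted p = 0.743, edgeR) in δKO compared with WT and -0.56 in TKO compared with δKO. Without δKO replicate 1 these were 0.40 and -0.33, and with the number of genes detected in the model 0.17 and -0.25. Rpl29 was on the other side, with 544, 354 and 363 CPM in WT and 220, 395 and 205 CPM in δKO (log2 fold change -0.62, SE 0.372, adjusted p = 0.733, edgeR), and it ranged from -0.98 without δKO replicate 2 to -0.39 without WT replicate 1. In TKO compared with δKO, Rps19bp1 and Rps15, a 40S protein needed for export of the subunit, were also among the 6 smallest p, at log2 fold changes of 0.84 (SE 0.721) and 0.33 (SE 0.290). With single libraries left out, Rps19bp1 ranged from 0.35 (without TKO replicate 2) to 1.69 (without the unnumbered δKO library) and was 0.36 without δKO replicate 1. Rps15 fell to 0.092 without TKO replicate 2 and was at most 0.48. Rpl36 in δKO compared with WT was 0.37 without δKO replicate 1 and 0.20 with the number of genes detected in the model.

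The paralogs form a group of their own, since some of them can take the place of the core protein in the ribosome. Rpl22l1 (ENSMUSG00000039221.10, chr3:28805436-28807424) is the paralog of Rpl22, whose protein is known to repress Rpl22l1. Its level was 14.999, 21.7 and 24.0 CPM in WT, 25.01 CPM in δKO replicate 1, 34.5 CPM in δKO replicate 2, 47.6 CPM in the unnumbered δKO library, and 12.5, 23.4 and 17.7 CPM in TKO. The 3 δKO libraries were the highest of the 9 and the TKO and WT libraries overlapped, although δKO replicate 1 and WT replicate 3 were close. The log2 fold change was -0.999 in TKO compared with δKO (SE 0.418, 95% interval -1.91 to -0.09, adjusted p = 0.467, edgeR). In δKO compared with WT it was 0.82 (SE 0.416, adjusted p = 0.699, edgeR). Neither passed the adjusted threshold. At an unadjusted p under 0.05 in TKO compared with δKO, Rpl22l1 was found under 7 of 12 other settings, where 1.99% to 5.91% of all genes were lower, and with 4 of the 9 libraries left out in turn, where 3.12% to 8.17% were. It was lost with upper-quartile scaling, a minimum of 10 counts in every library, the replicate block, edgeR on the compared groups alone or the number of genes detected in the model. It was also lost without WT replicate 2, δKO replicate 2, the unnumbered δKO library, TKO replicate 1 or TKO replicate 3. The log2 fold change of Rpl22l1 ranged from -1.02 to -0.84 over the 12 settings and from -1.24 to -0.74 with single libraries left out.

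Rpl22 itself had 164, 167 and 210 CPM in WT, 200, 187 and 174 CPM in δKO and 160, 209 and 156 CPM in TKO. The ratio of Rpl22l1 to Rpl22 averaged 0.194 ± 0.0751 in the δKO libraries, 0.112 ± 0.0195 in those of WT and 0.101 ± 0.0198 in those of TKO (SD, n = 3). Within δKO it ran from 0.125 in replicate 1 to 0.274 in the unnumbered library, and the lowest of these lay below the highest WT ratio of 0.130.

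Rps27l, a paralog of Rps27 that p53 induces, had 23.7, 20.9 and 21.3 CPM in WT, 44.3, 31.3 and 9.92 CPM in δKO (the last unnumbered) and 14.3, 54.1 and 9.47 CPM in TKO. Rps27 had 165, 239 and 320 CPM in WT, 482, 266 and 153 CPM in δKO and 184, 499 and 211 CPM in TKO. Both genes were highest in TKO replicate 2 and next in δKO replicate 1, and both spread more within δKO and TKO than between genotypes. The ratio of Rps27l to Rps27 averaged 0.0994 ± 0.0402 for WT libraries, 0.0914 ± 0.0264 for δKO and 0.0770 ± 0.0317 for TKO (SD, n = 3).

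Rpl36al, an intronless copy that makes nearly the same protein as Rpl36a, was the most abundant paralog, with 138, 167 and 159 CPM in WT, 148, 206 and 188 CPM in δKO and 111, 239 and 103 CPM in TKO. It stood at 0.440 to 0.986 of the level of Rpl36a, both extremes being δKO libraries. Rpl7l1 had 24.0, 23.6 and 22.7 CPM in WT but 6.42, 35.3 and 44.3 CPM in δKO and 42.7, 27.6 and 23.2 CPM in TKO. WT was thus even while the low value of δKO replicate 1 stood apart. Rps19bp1 was likewise lowest in δKO replicate 1, with 1.83, 7.68 and 16.3 CPM in δKO compared with 9.73, 15.8 and 12.8 CPM in WT and 10.2, 24.1 and 11.8 CPM in TKO. The remaining copies that were tested, Rpl37rt, Rps27rt, Rps3a2, Rps3a3, Rpl6l and Rps4l, had at most 35.3 CPM in any library. Their reads cannot be told apart with certainty from those of the core genes they resemble, and none had an unadjusted p under 0.05 by edgeR in any comparison.

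**Figure D5:**
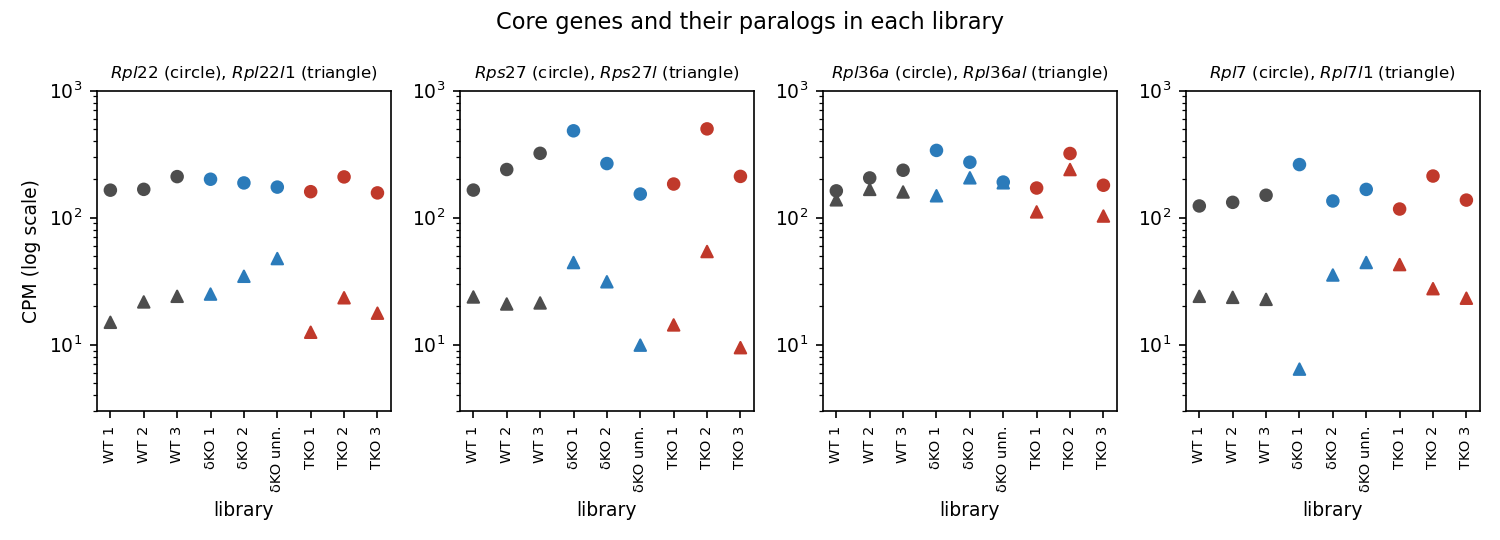
CPM (y axis, log scale) of 4 core genes (circles) and their paralogs (triangles) in each library (x axis; WT gray, δKO blue, TKO red). Rpl22l1 is highest in the 3 δKO libraries (25.01 to 47.6 CPM) while Rpl22 is level, and Rps27l and Rps27 are both highest in TKO replicate 2.

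Genes outside the symbol rule were compared with the members. Fau encodes a ribosomal protein fused to a ubiquitin-like sequence, and Rack1 is a scaffold on the 40S subunit. Rack1 had 270, 259 and 326 CPM in WT, 224, 286 and 265 CPM in δKO and 237, 400 and 255 CPM in TKO. Fau had 137, 125 and 191 CPM in WT, 93.7, 145 and 127 CPM in δKO and 117, 224 and 125 CPM in TKO. Both were highest in TKO replicate 2, as most core genes were, and overlapped between genotypes.

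The 22 translation factors and other mRNAs of the TOP family stood 0.35 above their mean in TKO replicate 2 by the median (log2), a smaller difference than the 0.60 of the core genes, and at -0.02 and -0.12 in TKO replicates 1 and 3. By genotype their medians were 0.16 in TKO compared with WT, 0.00 in TKO compared with δKO and 0.16 in δKO compared with WT. By edgeR 0 had an unadjusted p under 0.05, where 4.19%, 10.2% and 7.01% of all genes did. Without overlap of the groups, 2 of the 22 were higher in TKO than in WT (9.09%, beside 6.88% of all genes) and 2 in δKO than in WT (9.09%, beside 4.13%). In TKO compared with WT the smallest p belonged to Eef1a1, which brings tRNA to the ribosome, with 3012, 3092 and 3368 CPM in WT and 3334, 4974 and 3439 CPM in TKO (log2 fold change 0.31, SE 0.215, adjusted p = 1.00, edgeR), and next to the histone chaperone Nap1l1 (0.28, SE 0.197). In δKO compared with WT they belonged to Eif2s3x, a subunit of the initiation factor eIF2, with 65.4, 112 and 48.5 CPM in WT and 152, 103 and 112 CPM in δKO (0.70, SE 0.343, adjusted p = 0.699, edgeR), and to Eif4b (0.49, SE 0.257). In TKO compared with δKO they belonged to Eif2s3x (-0.49, SE 0.342) and Eef1d (0.27, SE 0.337).

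Of the 12 listed genes that act on TOP mRNAs, among them Larp1, Eif4ebp1, Mtor and the S6 kinase gene Rps6kb1, 0 had an unadjusted p under 0.05 by edgeR (4.19%, 10.2% and 7.01% of all genes in the 3 comparisons), with medians of 0.06 in TKO compared with WT, -0.16 in TKO compared with δKO and 0.23 in δKO compared with WT. Rps6kb1 had 82.2, 92.7 and 99.3 CPM in WT, 51.3, 81.2 and 70.8 CPM in δKO and 62.0, 72.8 and 81.2 CPM in TKO. All TKO and δKO libraries were below the lowest WT library, as for 7.47% and 7.39% of all genes, and the log2 fold changes were -0.34 (SE 0.263, adjusted p = 1.00, edgeR) in TKO and -0.43 (SE 0.263, adjusted p = 0.733, edgeR) in δKO. Eif4ebp1, which blocks the cap-binding protein when mTORC1 is off, had 9.02, 11.04 and 14.6 CPM in WT, 17.6, 10.99 and 20.02 CPM in δKO and 5.91, 14.5 and 8.31 CPM in TKO, with a log2 fold change of -0.76 (SE 0.540, adjusted p = 0.647, edgeR) in TKO compared with δKO. The other genes with the 2 smallest p in a comparison were Cnbp (0.19, TKO compared with WT) and Tial1 (-0.41 in TKO compared with δKO and 0.57 in δKO compared with WT).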

How the data were processed

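Paired-end RNA-seq reads of 9 LT-HSC libraries (3 each of WT, δKO and TKO) were trimmed with Trim Galore (v0.3.7) and aligned to mm10 and counted on genes with STAR (v2.5.1b) by the authors, who deposited raw counts for 47643 genes. They also deposited a normalized signal, which equals the raw count divided by a DESeq2 size factor (0.590 to 1.45) in the 8 columns matched by name. Neither the annotation nor how technical runs were joined is given in the sources used here. The cDNA was amplified, so counts are not independent molecules.

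Of the gene identifiers, 47224 matched the GENCODE annotation of mm10 without version. The members and gene lists were chosen with earlier results of these data known. Genes were kept with filterByExpr (count minimum 10, total minimum 15), scaled with TMM and fitted with edgeR 4.0.16 (R 4.3.3) on all 9 libraries with 1 mean per genotype. p-values were Benjamini-Hochberg adjusted over all 18205 kept genes and are two-sided. Genes were called at adjusted p under 0.05 and more than 2-fold. DESeq2 1.42.0 and limma 3.58.1 were alternatives, beside other scaling factors and filters, a replicate block, robust estimation, a covariate for genes detected per library, only the groups compared, adjusted p alone, and each library left out in turn. The code was tested on simulated data. Figures were drawn with matplotlib.

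Named genes are the members outside the core lists, the 6 members with the smallest p in each comparison, the 3 highest and 3 lowest core genes per kb, 9 genes chosen for their known roles, Fau and Rack1, and the 2 smallest p in each list of translation genes; genes that peaked elsewhere than in TKO replicate 2, varied most, did not overlap or passed without that library were named after their values were seen. A few genes that these rules name are not reported here, nor drawn by name, but count in all totals. Libraries of one genotype differed far beyond counting error (a chi-square per core gene of 117 to 475, against 1 from counting alone), and the spread between libraries sets the precision.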

Additional observations from a re-analysis of the deposited data

How the results depend on the processing

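No member was called in any comparison under the 13 alternatives or with any of the 9 libraries left out. The core median log2 fold change ranged from -0.05 to 0.07 in TKO compared with WT, from -0.10 to 0.13 in TKO compared with δKO and from -0.14 to 0.09 in δKO compared with WT over the alternatives, so its sign depended on the setting. Leaving out single libraries gave -0.34 to 0.20, -0.40 to 0.19 and -0.02 to 0.14, the lowest TKO values being those without TKO replicate 2. Without it, most core genes were below 0 in both TKO comparisons, and the log2 fold changes of Rps28 and Rps19, which had been among the smallest p, reversed, and with each library left out in turn they ranged from -0.083 to 0.58 for Rps28 and -0.054 to 0.65 for Rps19 compared with WT, and from -0.033 to 0.67 for Rps19 compared with δKO. With genes detected per library as a covariate, the δKO median compared with WT was -0.14 and Rpl7 reversed (-0.045). Upper-quartile factors moved the median of all genes from -0.06 to 0.08 in TKO compared with δKO and from 0.05 to -0.10 in δKO compared with WT, and the core medians followed (0.13 and -0.11), so relative to all genes they hardly moved. The cause of these reversals was not tested. Outside the mitochondrial genes the core share averaged 2.83% for δKO libraries, 3.22% for WT and 3.21% for TKO. The core share of all counts, with single libraries left out, ranged from 2.54% to 2.86% for WT, 2.10% to 2.59% for δKO and 2.46% to 3.05% for TKO.

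The replicate numbers did not pair the libraries: of 7 same-number pairs, 0 correlated above 0.1 (r from -0.04 to 0.08). A fit with the replicate number as a block, which drops the unnumbered δKO library, called 0 members and gave core medians of 0.00, -0.10 and 0.09 in TKO compared with WT, TKO compared with δKO and δKO compared with WT.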
